A study of Homo sapiens with 8 samples.

Results

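SH-EP2 cells in which the ion channel TRPM7 was knocked down by a short hairpin RNA were compared with SH-EP2 cells that carried a scrambled hairpin. The comparison takes the 4 SH-EP2 arrays of a series of 8, 2 from TRPM7 shRNA cells and 2 from control cells, chosen by the cell line and the hairpin that the labels give, and it covers all 47322 probes of the array. SH-EP2 is a non-neuronal, substrate-adherent subclone of the human neuroblastoma line SK-N-SH, grown in DMEM with fetal bovine serum, and the labels call the tumour type epithelial-like neuroblastoma. Both groups were made with a lentivirus and kept as stable cells under puromycin, so that the control cells share the virus and the selection. A single TRPM7 hairpin was put on the arrays, so off-target effects cannot be told apart from those of the knockdown in these data. Outside the arrays the study reports reduced SH-EP2 migration with another TRPM7 hairpin too, and lower SNAI2 by RT-PCR after knockdown. The other 4 arrays are of SH-SY5Y cells, the neuroblastic subclone of the same parental line, with the same hairpins. The duplicates are not stated to be separate cultures, so the spread behind the p-values may be technical. That spread is estimated from the duplicates of all 4 groups of the series and drawn toward a trend over signal intensity. An SE below is therefore not the scatter of the SH-EP2 arrays alone.

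TRPM7 is a cation channel fused to a protein kinase. It carries magnesium, calcium and zinc into the cell, and its kinase acts on the heavy chain of non-muscle myosin II, the motor that contracts actin bundles at adhesions. Neuroblastoma comes from the neural crest, and lines derived from one tumour can hold neuron-like cells and flat adherent cells that make much matrix and many actin bundles. SH-EP2 is a line of the latter kind.

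The arrays were Illumina HumanHT-12 v4 bead arrays, which give each probe a bead signal in arbitrary units and a detection p. A probe counts as detected where that p is under 0.05, and each SH-EP2 array detected 40.8% to 42.0% of its probes. With 2 arrays in a group, precision is limited by that number. All levels below are log2 signals after background correction and quantile normalization, a log2 change is TRPM7 shRNA minus control with its standard error (SE), and a gene is given by its brightest probe unless another is named. A verb of change is used only for an adjusted p under 0.05, from 1 limma fit over all probes of the 8 arrays. For a probe that was undetected on both arrays of one group the fold is a bound, computed from the detection floor of those arrays. Levels of different probes are not compared with each other, and further probes of a gene are not given in every case.

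The marker genes of the mesenchymal type of neuroblastoma were present, since all 12 were detected. Of these CD44 was higher (log2 change 0.77, SE 0.18) and SNAI2 and COL1A1 were lower. The summed linear signal of the 12 genes lay between 31600 and 32400 on the 4 arrays, and most of it came from VIM, COL1A1 and COL3A1. Of 13 epithelial markers 5 were detected on at least 1 array (KRT7, KRT8, KRT18, KRT19 and CLDN4), the defining CDH1 and EPCAM were undetected on all 4, and none passed the adjusted threshold (0 of 13 in limma, with 2 higher and 2 lower at an unadjusted p under 0.05). The summed signal of the epithelial list was 915 and 762 in control and 501 and 577 in TRPM7 shRNA cells. Most of that sum came from KRT8 and KRT18, with log2 changes of -0.67 and -0.95 that did not pass. KRT7 and KRT19 had changes of 1.34 and 1.46, which did not pass either. By these markers the data do not bear out an epithelial identity, and the cells are called SH-EP2 cells throughout. Of 13 noradrenergic markers 6 were detected on at least 1 array, ISL1 and HAND2 among them on all 4. TH, DBH and PHOX2A were among the undetected, and TH was detected on no SH-SY5Y array either. Among the 13 markers CHGB was higher (1.01, SE 0.22), GATA2 was lower (-0.78, SE 0.18), and CHGA passed on a probe that no SH-EP2 array detected. CHGB did not pass without control replicate 1 (0.81) or TRPM7 shRNA replicate 1 (0.54), GATA2 not without either control array (-0.78 and -0.79) or the second TRPM7 shRNA array (-0.44), and CHGA not with any 1 of the 4 arrays left out (-0.72 to -0.53). None of the 3 passed with the SH-EP2 arrays fitted alone.

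Of 7 leukocyte markers 5 were detected on at least 1 array, and CD14, the coreceptor for bacterial lipopolysaccharide, was the one that passed. Its levels were 8.06 and 7.91 in control and 6.09 and 5.82 in TRPM7 shRNA cells (log2 change -2.03, SE 0.24, adjusted p = 3.22e-05 from limma). The summed signal of this list was 509 and 449 in control and 253 and 248 in TRPM7 shRNA cells, and CD14 made up most of the fall. CD3E was undetected, PTPRC, which marks all leukocytes, had a log2 change of 0.00, and the part of these markers in the results below was not tested. Of 6 endothelial markers 2 were detected and 0 passed (0 higher and 1 lower at an unadjusted p under 0.05).

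TRPM7 itself was measured by 1 probe (ILMN_1667047). It was detected on none of the 4 arrays, with a detection p of 0.105 to 0.201 and levels of 2.47 and 2.80 in control and 2.65 and 2.46 in TRPM7 shRNA cells. The groups overlapped, and the arrays hold no measure of the knockdown. The study measured TRPM7 mRNA in SH-EP2 cells by quantitative PCR, apart from the arrays. No other TRPM channel or magnesium transporter passed either (0 of 20 genes in limma, with 2 higher and 2 lower at an unadjusted p under 0.05). TRPM4, a calcium-activated cation channel, had a log2 change of -0.48 (adjusted p = 0.404 from limma), and the magnesium transporter genes MAGT1 and NIPA2 had changes of 0.00 and 0.14.

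By probe, 3.02% of the array passed in SH-EP2 cells, 1.48% higher and 1.54% lower in TRPM7 shRNA cells, and at an unadjusted p under 0.05 the shares were 6.51% and 6.04%. By gene, 572 of 31426 (1.82%) were higher and 581 (1.85%) were lower in TRPM7 shRNA cells. The median log2 change over all genes was 0.01. Among the 15713 genes with the higher mean signal 3.57% were higher and 3.65% were lower, which is the background for the families below. Changes of at least 1 on the log2 scale were as many up as down, with 269 probes each. The arrays of the 2 groups did not overlap in 44.3% of all genes, so that separation of the arrays by itself says little. The counts depend on how the spread is estimated, and 100 probes passed without an intensity trend in place of 1429.

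**Figure D1:**
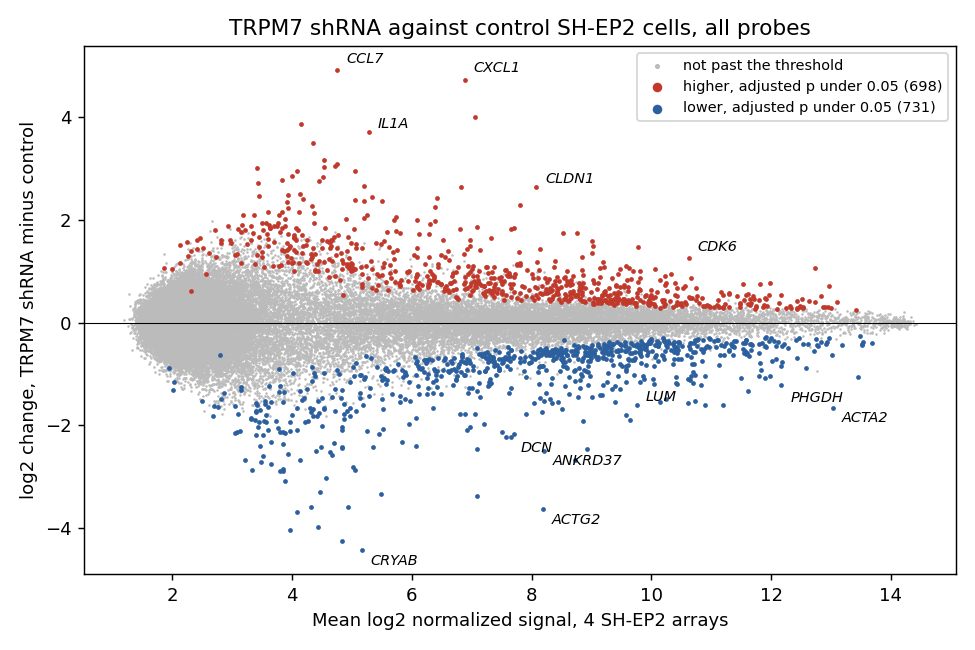
The log2 change of every probe in TRPM7 shRNA against control SH-EP2 cells (y axis) against its mean log2 normalized signal on the 4 arrays (x axis). Red points (698) were higher and blue points (731) lower at an adjusted p under 0.05, grey points did not pass.

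The probes with the steepest increases, ranked by measured change or bound, were led by secreted signals of inflammation. CXCL1, a neutrophil attractant, changed by 4.73, IL8 by 4.01 on its probe ILMN_2184373, IL1A by 3.72, CSF2 by 3.09 and LTB by 3.05. CCL7, detected in TRPM7 shRNA cells only, was at least 15.8-fold higher. Outside this group came KCNAB1, a beta subunit of voltage-gated potassium channels (3.17, SE 0.34), on 1 of its 4 probes while the others changed by 0.27, 0.93 and -0.18 and did not pass. KCNJ2, the inward rectifier that sets the resting potential, was at least 7.09-fold higher. INPP5D, an inositol phosphatase known from blood cells, rose by 2.67 (SE 0.42), AQP10, a water and glycerol channel, by 2.95 (SE 0.21), and CLDN1, the tight junction claudin, by 2.65 (SE 0.29). C21orf129 was at least 6.50-fold higher.

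Among the steepest decreases was CRYAB, a small heat shock protein that holds unfolded proteins and desmin filaments. It was detected in control cells only, at 7.59 and 7.17 against 2.93 and 2.97, and was at least 18.5-fold lower. The smooth muscle actin ACTG2 changed by -3.63, the lipid phosphatase-related LPPR4 by -3.37, PLAC9 by -3.59, C5orf23 by -3.34 and LOC648470 by -2.81. KCNMB1, the smooth muscle subunit of the large-conductance calcium-activated potassium channel, was at least 7.71-fold lower. Also detected in control cells only were C5orf46 (at least 13.8-fold lower), FMO1, a flavin monooxygenase (at least 7.63-fold), ADAMTS5, an aggrecan-cleaving protease (at least 7.01-fold), LRRC32, which tethers latent TGF-beta to the cell surface (at least 6.78-fold), and ILMN_1842320, a probe without a gene symbol (at least 7.49-fold). FRAS1, an extracellular protein of the epithelial basement membrane, fell by 2.87 on 1 of its 4 probes, and its other probes had changes of -0.32, -0.31 and 0.40. IL17B, a cytokine of the IL17 family, had levels of 5.74 and 5.18 in control and 3.30 and 2.28 in TRPM7 shRNA cells. Its change of -2.67 no longer passed without control replicate 1 (-2.40) or TRPM7 shRNA replicate 2 (-2.17).

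Chemokines were the family with the largest share of increases. Of 24 measured genes 7 were higher (29.2%) and 0 were lower, also at an unadjusted p under 0.05, and the median log2 change was 0.38. These small secreted proteins draw leukocytes along a gradient, those of the CXC class with a glutamate-leucine-arginine motif drawing neutrophils and those of the CC class monocytes. In many cells their genes are switched on by NF-kB, which binds the kappaB motif in the promoter. Promoter sequences of RefSeq (GRCh38.p14, 250 bases before to 50 after the start) were searched on both strands for that motif, with overlapping matches counted as 1. Only exact matches to a fixed pattern were taken, so a site that departs from it by a letter is missed. It was found in 10.8% of 27305 promoters, and in 6 of the 10 promoters matched among the 12 chemokine and cytokine genes that rose. Family members that did not pass were not counted separately, so this share cannot be tied to the rise. The 3 CXC chemokines that follow carry the same run of letters close to the start and are shown for that reason. Each run is the 200 bases before the start with the match in capitals, for CXCL1 at chr4:73869193-73869392 on the plus strand, CXCL2 at chr4:74099196-74099395 and CXCL5 at chr4:73998678-73998877, both on the minus strand.
CXCL1: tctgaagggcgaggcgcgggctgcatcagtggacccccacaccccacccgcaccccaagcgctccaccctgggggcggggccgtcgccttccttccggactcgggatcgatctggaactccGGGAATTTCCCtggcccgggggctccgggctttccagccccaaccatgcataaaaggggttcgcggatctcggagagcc
CXCL2: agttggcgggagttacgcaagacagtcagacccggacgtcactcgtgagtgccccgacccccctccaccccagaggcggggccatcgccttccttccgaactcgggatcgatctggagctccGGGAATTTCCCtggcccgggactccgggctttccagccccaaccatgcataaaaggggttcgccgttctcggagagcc
CXCL5: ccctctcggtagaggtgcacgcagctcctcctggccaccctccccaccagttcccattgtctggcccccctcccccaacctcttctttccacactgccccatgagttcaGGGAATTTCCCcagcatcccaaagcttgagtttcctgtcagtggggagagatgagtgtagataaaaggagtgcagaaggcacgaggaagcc
The match starts 79 bases before the start in CXCL1, 78 in CXCL2 and 91 in CXCL5. Promoters of IL8 (now CXCL8), CCL7, IL1A and CSF2 hold no exact match in this window, which does not show that they lack a site. Those of CX3CL1 and CCL2 were not matched. A match is a description of the letters, and binding was not measured.

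Of the 6 neutrophil-attracting CXC genes 4 rose. CXCL1 (ILMN_1787897) stood at 4.95 and 4.10 on the control arrays and at 9.29 and 9.21 on the TRPM7 shRNA arrays (log2 change 4.73, SE 0.35). CXCL2 (ILMN_1682636) was not detected on the control arrays and stood at 6.06 and 6.14 in TRPM7 shRNA cells, at least 7.33-fold higher (adjusted p = 0.000164 from limma). IL8 (ILMN_1666733) had levels of 5.31 and 5.11 in control and 7.57 and 7.70 in TRPM7 shRNA cells (2.43, SE 0.27), and its second probe showed the larger change named above. In each of these genes the TRPM7 shRNA arrays lay together, well above both control arrays. CXCL5 (ILMN_2171384) had levels of 6.64 and 6.36 against 8.12 and 8.15 (1.64, SE 0.28, adjusted p = 0.00136 from limma), and a second probe rose by 1.72. CXCL3, from the same gene cluster, had levels of 3.20 and 2.86 against 2.63 and 3.41, detected on 1 of 4 arrays. The CXCL5 call was lost without control replicate 2 (1.5), TRPM7 shRNA replicate 1 (1.65) or TRPM7 shRNA replicate 2 (1.62).

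Of the CC and CX3C classes CCL2, CCL7 and CX3CL1 passed. CCL2 (ILMN_1720048), the main monocyte attractant, was bright already in control cells, at 12.24 and 12.17, and rose to 13.26 on both TRPM7 shRNA arrays (1.06, SE 0.12, adjusted p = 2.51e-05 from limma). CCL7 (ILMN_1683456), which shares its receptors, went from undetected (2.58 and 2.01) to 7.12 and 7.30. CX3CL1 (ILMN_1654072), a membrane-bound chemokine that also holds leukocytes to a surface, was undetected in control cells and stood at 4.81 and 5.28 in TRPM7 shRNA cells, at least 3.53-fold higher (adjusted p = 5.97e-06 from limma). The spread between duplicates in these genes was small beside the differences. The remaining 17 chemokine genes had changes down to -0.82 and did not pass, and 9 of the 24 were detected on no SH-EP2 array.

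**Figure D2:**
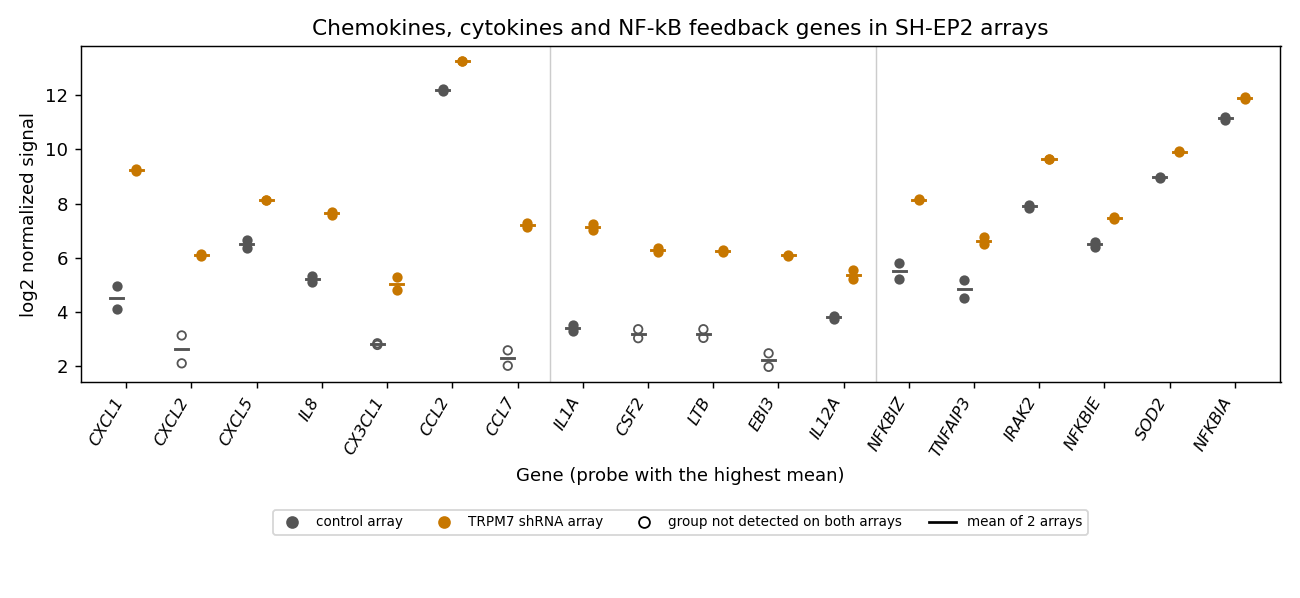
The log2 normalized signal of 18 chemokine, cytokine and NF-kB feedback genes (x axis, divided by lines into these 3 groups) on the 2 control arrays (grey) and the 2 TRPM7 shRNA arrays (orange), with bars at the means and open circles where a group was not detected on both arrays. In every gene both TRPM7 shRNA arrays lie above both control arrays, with CXCL1 going from 4.95 and 4.10 to 9.29 and 9.21 and NFKBIA from 11.19 and 11.10 to 11.95 and 11.87. The genes were chosen because they were higher, so this separation follows from the choice. Over all genes the groups did not overlap in 44.3%, in either direction.

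Of 27 interleukins and colony-stimulating factors 5 were higher (18.5%) and 0 were lower (9 and 2 at an unadjusted p under 0.05), with a median log2 change of 0.43. The list does not hold IL17B, which fell as given above. IL1A (ILMN_1658483), an alarm cytokine that acts when cells are damaged, had levels of 3.31 and 3.53 in control and 7.04 and 7.25 in TRPM7 shRNA cells (3.72, SE 0.43, adjusted p = 2.01e-05 from limma). CSF2 (ILMN_1661861), the granulocyte and macrophage growth factor, went from 3.03 and 3.36 to 6.21 and 6.36 (3.09, SE 0.48). LTB (ILMN_2376205), a membrane-bound lymphotoxin of the TNF family, went from 3.04 and 3.36 to 6.22 and 6.28 (3.05, SE 0.45). All 3 were close to the detection limit in control cells and clearly measured in TRPM7 shRNA cells. EBI3 (ILMN_1802653) and IL12A (ILMN_1671353) encode the subunits that together form interleukin 35. EBI3 was undetected in control cells and stood at 6.10 and 6.07 in TRPM7 shRNA cells (at least 7.24-fold higher), and IL12A went from 3.85 and 3.74 to 5.54 and 5.22 (1.59, SE 0.35). IL12A did not pass with any 1 of the 4 arrays left out (log2 change 1.44 to 1.76). IL1B and IL6, the other early inflammatory cytokines, had changes of 1.44 (SE 0.44, adjusted p = 0.0931 from limma) and 1.04 (SE 0.32, adjusted p = 0.0971 from limma), which did not pass. In both the groups did not overlap, as in 44.3% of all genes.

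Among 28 cytokine receptors the directions were mixed, with 3 higher and 3 lower. TNFRSF9 (0.98, SE 0.25) and TNFRSF21, a death receptor (0.60, SE 0.11), were higher, as was IL27RA, a subunit of the interleukin 27 receptor (0.61, SE 0.16). TNFRSF11B, the decoy receptor osteoprotegerin, was lower (-1.78, SE 0.45), as were TNFRSF12A, the receptor of TWEAK (-0.81, SE 0.13), and IL11RA (-0.44, SE 0.094). These calls were fragile. TNFRSF9 (0.90 to 1.05), IL27RA (0.56 to 0.66), TNFRSF11B (-1.93 to -1.65) and IL11RA (-0.46 to -0.41) did not pass with any 1 of the 4 arrays left out, TNFRSF12A did not pass without control replicate 1 (-0.69), and TNFRSF21 did not pass without TRPM7 shRNA replicate 2 (0.58).

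NF-kB is held in the cytoplasm by inhibitor proteins whose own genes it switches on, which makes these genes a readout of feedback. Of 27 genes of this circuit 6 were higher (22.2%) and 0 were lower (10 and 1 at an unadjusted p under 0.05), with a median of 0.42. All 6 encode inhibitors, signalling proteins or targets, and none of the 5 DNA-binding subunits passed. NFKBIZ (ILMN_1719695), a nuclear IkB protein needed for a late set of cytokine genes, went from 5.80 and 5.2 to 8.12 and 8.17 (2.65, SE 0.28, adjusted p = 8.3e-06 from limma). TNFAIP3 (ILMN_1702691), the ubiquitin-editing inhibitor A20, went from 5.17 and 4.53 to 6.75 and 6.51 (1.78, SE 0.38). NFKBIA (ILMN_1773154), the classical inhibitor IkB-alpha, went from 11.19 and 11.10 to 11.95 and 11.87 (0.76, SE 0.090, adjusted p = 2.77e-05 from limma). NFKBIE, another IkB protein, rose by 0.98 (SE 0.17), IRAK2, a kinase of the IL1 receptor pathway, by 1.75 (SE 0.36), and SOD2, the mitochondrial superoxide dismutase, by 0.95 (SE 0.12). Of the subunits NFKB1 had a log2 change of 0.04, RELA of 0.06 and NFKB2 of 1.05 (SE 0.36, adjusted p = 0.154 from limma). IRAK2 did not pass with any 1 of the 4 arrays left out (1.70 to 1.79), nor did TNFAIP3 without control replicate 2 or either TRPM7 shRNA array (1.45 to 2.10 over all 4 omissions).

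The kappaB motif was present in 3 of the 5 promoters matched among these 6 genes, those of NFKBIA, NFKBIZ and TNFAIP3, against 10.8% of all promoters. Genes of this circuit that did not pass were not counted separately, so the share cannot be tied to the rise. The NFKBIA promoter is shown because the gene is the classical feedback inhibitor, at chr14:35404750-35404949 on the minus strand, with the match, which starts 81 bases before the start, in capitals.
NFKBIA: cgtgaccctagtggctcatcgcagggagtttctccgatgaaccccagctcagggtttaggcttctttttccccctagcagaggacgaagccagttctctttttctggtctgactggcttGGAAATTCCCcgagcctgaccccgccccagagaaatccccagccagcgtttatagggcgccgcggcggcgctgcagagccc
Of 36 interferon-stimulated genes 4 were higher (11.1%) and 0 were lower, with a median of 0.12. IFI44 rose by 0.91 (SE 0.15) and its neighbour IFI44L by 1.19 (SE 0.24), and both are induced by type I interferon. IRF1, a transcription factor shared with NF-kB signalling, rose by 0.50 (SE 0.13), and HERC5, the ligase that attaches ISG15, by 1.63 (SE 0.25). IRF1 did not pass with any 1 of the 4 arrays left out (0.38 to 0.61), IFI44L did not pass without control replicate 1 or either TRPM7 shRNA array (1.05 to 1.31 over all 4 omissions), and HERC5 did not pass with the SH-EP2 arrays fitted alone.

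Of 17 genes of prostaglandin synthesis and receptors 0 were higher and 2 were lower (3 and 2 at an unadjusted p under 0.05). PTGS1, the constitutive cyclooxygenase, was detected in control cells only, at least 2.83-fold lower, and PTGER2, a prostaglandin E2 receptor, fell by 1.01 (SE 0.19). The inducible cyclooxygenase PTGS2 had a log2 change of -0.19 on its brightest probe, while its second probe (ILMN_1677511), detected in TRPM7 shRNA cells only, was at least 1.71-fold higher (adjusted p = 0.0348 from limma). The PTGS1 call was lost without control replicate 1 (-2.11). The PTGER2 change was -0.60 without TRPM7 shRNA replicate 1, and it did not pass.

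Of 34 genes of actin, tropomyosin and smooth muscle proteins 15 were lower (44.1%) and 1 was higher, with a median of -0.33. The actin and myosin of smooth muscle and of stress fibres share a set of thin filament proteins, and many of their genes are driven by serum response factor through the CArG motif. ACTG2 (ILMN_1795325), the enteric smooth muscle actin, went from 10.09 and 9.91 in control to 6.29 and 6.44 in TRPM7 shRNA cells (-3.63, SE 0.30, adjusted p = 2.74e-07 from limma). ACTA2 (ILMN_1671703), the vascular smooth muscle actin, went from 13.90 and 13.83 to 12.26 and 12.15 (-1.66, SE 0.086, adjusted p = 7.25e-10 from limma). CALD1 (ILMN_1730487), the actin-binding caldesmon, went from 12.34 and 12.22 to 10.89 and 11.01 (-1.33, SE 0.083). These are among the brighter probes, and the difference between groups was many times the spread within each.

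TAGLN (ILMN_1778668), transgelin, went from 13.94 and 14 to 12.97 and 12.88 (-1.05, SE 0.12), and TPM4, a tropomyosin of stress fibres, from 9.43 and 9.24 to 8.30 and 8.52 (-0.93, SE 0.12). The crosslinkers CSRP1 (-1.17, SE 0.11) and ACTN1, alpha-actinin (-0.62, SE 0.090), fell as well. PDLIM5, a Z-disc protein, changed by -1.14 (SE 0.30), but it did not pass with any 1 of the 4 arrays left out (-1.41 to -0.91) or with the SH-EP2 arrays fitted alone. The further 7 that fell had changes between -0.74 and -0.26. The exception was SVIL, supervillin, which links myosin II to the membrane, at 9.16 and 9.21 in control and 10.00 and 10.02 in TRPM7 shRNA cells (0.83, SE 0.11).

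CArG motifs are rare in this window, in 1.29% of all promoters. Among the 15 genes that fell 2 of the 14 promoters matched hold one, those of ACTG2 and TPM4. Actin genes that did not pass were not counted separately, so this share cannot be tied to the fall. The ACTG2 promoter is printed because the gene had the steepest measured decrease and carries 2 matches, in capitals, starting 110 and 73 bases before the start, at chr2:73892808-73893007 on the plus strand.
ACTG2: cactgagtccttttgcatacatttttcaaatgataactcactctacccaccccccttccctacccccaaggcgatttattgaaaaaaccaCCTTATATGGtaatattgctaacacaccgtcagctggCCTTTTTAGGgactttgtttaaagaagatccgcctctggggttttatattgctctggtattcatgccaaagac
The promoters of ACTA2, CALD1 and CSRP1 hold no exact match in this window, and that of TAGLN was not matched. Sites that depart from the CArG pattern by a letter were not searched for, so these promoters are not shown to lack one. Of 20 genes of myosin II and its regulators 2 were lower and 0 higher (7 and 0 at an unadjusted p under 0.05). MYH9 (ILMN_1722872), the heavy chain of non-muscle myosin IIA, went from 12.42 and 12.44 to 11.76 and 11.70 (-0.70, SE 0.080, adjusted p = 2.09e-05 from limma), and RHOC, a small GTPase that activates contraction, had a change of -0.32 that did not pass with any 1 of the 4 arrays left out (-0.37 to -0.26). Of 25 calpains and focal adhesion proteins 3 were lower and 0 higher (9 and 2 at an unadjusted p under 0.05). FERMT2, the integrin activator kindlin-2, fell by 0.74 (SE 0.088), LPP, a LIM protein of adhesions, by 0.71 (SE 0.14), and ILK, integrin-linked kinase, by 0.42 (SE 0.075). LPP did not pass without control replicate 2 (-0.63) or TRPM7 shRNA replicate 1 (-0.66), nor ILK without control replicate 2 (-0.37). The second probes of RHOC and ILK had changes of -0.12 and -0.23, which did not pass.

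YAP and TAZ are transcriptional coactivators that answer to tension of the cytoskeleton. Of 17 of their target genes 4 were lower and 1 higher, with a median of -0.35. CTGF, a secreted matricellular protein, was lower on both its probes (-0.79, SE 0.18, and -0.88, SE 0.16), TGFB2 had a change of -1.23 (SE 0.32), and IGFBP3, an insulin-like growth factor binding protein, fell by 0.75 (SE 0.093). CYR61, a relative of CTGF, had a change of -0.48 (SE 0.15, adjusted p = 0.11 from limma). NUAK2, a target with a change in the other direction, had 0.97 (SE 0.35, adjusted p = 0.194 from limma). With any 1 of the 4 arrays left out TGFB2 (-1.26 to -1.19) and the CTGF probe with the change of -0.79 (-0.89 to -0.71) did not pass. The other CTGF probe was not checked in this way. YAP1 itself had a log2 change of 0.03.

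Collagens and their processing enzymes were lower in 10 of 40 genes (25.0%) and higher in 0 (16 and 2 at an unadjusted p under 0.05), with a median of -0.15. Fibrillar collagens make up the tensile fibres of the matrix, and the lysyl oxidases crosslink them. COL1A2 (ILMN_2104356) had a level of 11.40 on both control arrays and 9.78 and 9.90 in TRPM7 shRNA cells (-1.56, SE 0.27), and COL1A1, its partner chain, went from 13 and 12.98 to 12.48 and 12.37 (-0.56, SE 0.11). COL5A3 had a change of -2.55 (SE 0.49) and was detected on 1 of 2 TRPM7 shRNA arrays. LOX went from 9.76 and 9.90 to 8.73 and 8.62 (-1.15, SE 0.22) and LOXL3 fell by 1.16 (SE 0.18). The basement membrane collagens COL4A1 (-0.62, SE 0.083) and COL18A1 (-1.04, SE 0.14) and the network collagen COL8A1 (-1.08, SE 0.17) were lower too, whereas COL3A1, another fibrillar collagen, had a change of -0.14 (adjusted p = 0.498 from limma). Without TRPM7 shRNA replicate 1 the COL5A3 call was lost (-2.03), as was that of COL8A1 without control replicate 2 (-1.0), and those of LOX and COL1A1 were lost without either control array or TRPM7 shRNA replicate 2, over ranges of -1.22 to -1.09 and -0.62 to -0.50.

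**Figure D3:**
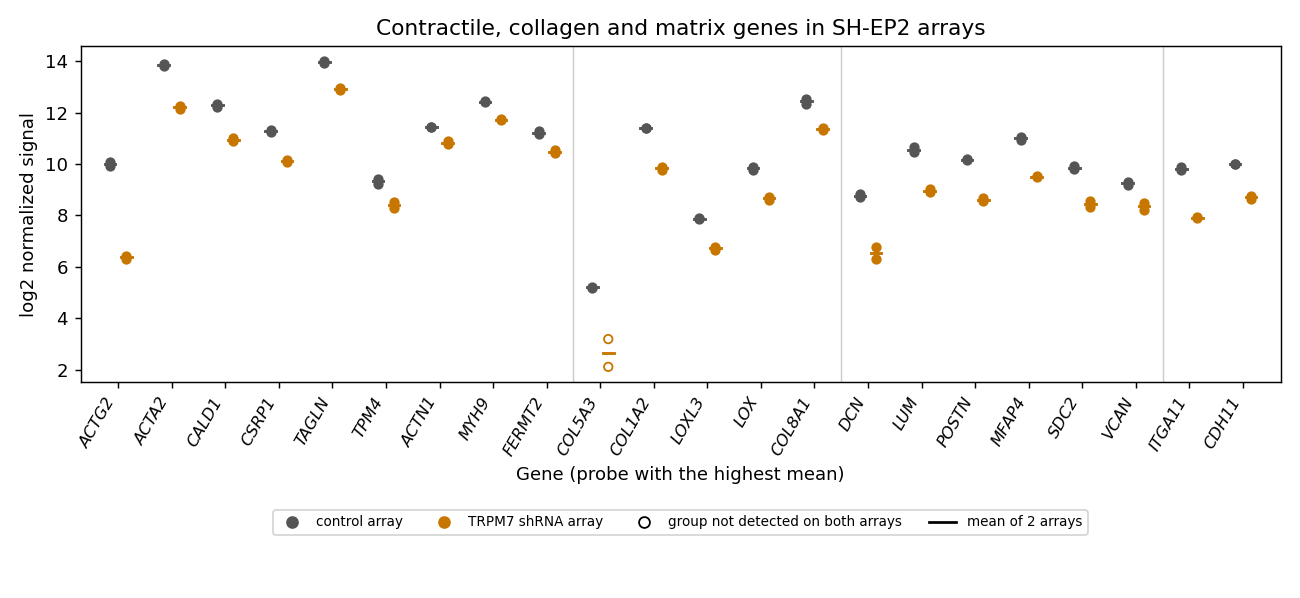
The log2 normalized signal of 22 contractile, collagen, matrix and adhesion genes (x axis) on the 2 control arrays (grey) and the 2 TRPM7 shRNA arrays (orange), with bars at the means and open circles where a group was not detected on both arrays. Both TRPM7 shRNA arrays lie below both control arrays in each gene, ACTG2 going from 10.09 and 9.91 to 6.29 and 6.44. The genes were chosen for a decrease, so this separation follows from the choice. Over all genes the groups did not overlap in 44.3%, in either direction.

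Of 47 genes of matrix glycoproteins and proteoglycans 10 were lower (21.3%) and 5 higher (10.6%), with a median of -0.21. Of the small leucine-rich proteoglycans, which bind collagen fibrils, DCN and LUM fell, BGN, biglycan, had a change of 0.00 and FMOD, fibromodulin, one of -0.74 (adjusted p = 0.595 from limma), and OGN, PRELP and ASPN were undetected. DCN (ILMN_2347145), decorin, went from 8.83 and 8.72 to 6.31 and 6.77 (-2.23, SE 0.12, adjusted p = 1.26e-09 from limma), and LUM (ILMN_1790529), lumican, from 10.67 and 10.46 to 9.01 and 8.92 (-1.60, SE 0.090). The groups lay far apart in both. POSTN, periostin, fell by 1.55 (SE 0.27), the microfibril protein MFAP4 by 1.48 (SE 0.084), and the large proteoglycan VCAN, versican, by 0.88 (SE 0.11). The second POSTN probe had a change of -0.98, which did not pass. MFAP5, a second microfibril protein, had a change of -2.08 (SE 0.51), and HAPLN1, which links proteoglycans to hyaluronan, of -1.33 (SE 0.30). Neither of these passed with any 1 of the 4 arrays left out (-2.34 to -1.84 and -1.45 to -1.21).

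The 5 matrix genes that were higher have to do with hyaluronan, cell surface heparan sulfate and tenascin. HAS3, a hyaluronan synthase, went from 3.67 and 4.10 to 5.88 and 5.93 (2.02, SE 0.35), and CD44, the hyaluronan receptor, from 11.58 and 11.63 to 12.27 and 12.48. The syndecans are transmembrane heparan sulfate proteoglycans, and they went both ways. SDC1 rose from 9.44 and 9.31 to 10.21 and 10.27 (0.86, SE 0.091) and SDC4 had a change of 0.86 (SE 0.22), while SDC2 fell from 9.92 and 9.79 to 8.31 and 8.57 (-1.41, SE 0.12). TNC, tenascin C, was higher by 0.65 (SE 0.15), and by 0.87 on its second probe. With any 1 of the 4 arrays left out CD44 (0.66 to 0.88), SDC4 (0.74 to 0.97) and the brighter TNC probe (0.58 to 0.72) did not pass.

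Metalloproteases, which cut matrix proteins, were lower in 6 of 35 genes (17.1%) and higher in 1. ADAMTS5 was detected in control cells only, at 6.03 and 5.93, and ADAMTS1, which also cuts proteoglycans, went from 6.79 and 7.21 to 5.12 and 5.18 (-1.85, SE 0.17, adjusted p = 1.81e-06 from limma). MMP11 changed by -0.74 (SE 0.14) and the inhibitor TIMP1 by -0.43 (SE 0.073). The one increase was MMP9, a gelatinase that NF-kB can induce, which went from 4.94 and 4.48 to 6.73 and 6.80 (2.06, SE 0.40, adjusted p = 0.00476 from limma). MMP9 did not pass without control replicate 2 or either TRPM7 shRNA array (1.82 to 2.29 over all 4 omissions), and MMP11 did not pass without control replicate 2 (-0.72) or TRPM7 shRNA replicate 2 (-0.68). Of 18 serine proteases and inhibitors 3 were higher and 2 lower. Among the higher ones TFPI2 passed on a probe that no SH-EP2 array detected. HTRA1, a secreted protease, had a change of -0.60 (SE 0.095), and SERPINF1, an antiangiogenic serpin, of 1.37 (SE 0.19).

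Among receptors for matrix, collagen-binding integrins went both ways. Of 12 integrin alpha chains 2 were lower and 1 higher. ITGA11 (ILMN_1651343) went from 9.76 and 9.88 to 7.93 and 7.89 (-1.91, SE 0.24, adjusted p = 6.27e-05 from limma) and ITGA1 from 6.74 and 6.71 to 5.32 and 5.08 (-1.53, SE 0.31). ITGA2 (ILMN_1665792) went from 6.11 and 6.37 to 7.70 and 7.75 (1.49, SE 0.21, adjusted p = 0.000218 from limma). All 3 pair with integrin beta 1 and bind collagen. In none did the arrays of the groups overlap, as in 44.3% of all genes. The ITGA1 call was lost without either control array or TRPM7 shRNA replicate 2 (-1.65 to -1.41 over all 4 omissions). Of 26 cadherin and junction genes 2 were higher and 1 lower. CDH11, the mesenchymal cadherin, went from 10.00 and 9.99 to 8.76 and 8.64 (-1.30, SE 0.10), the tight junction gene CLDN1 from 6.48 and 7.03 to 9.46 and 9.36, and JUP, plakoglobin of desmosomes and adherens junctions, from 5.91 and 5.83 to 6.72 and 6.90 (0.94, SE 0.15). The 2 dimmer JUP probes had changes of 0.22 and 0.09.

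The TGF-beta and BMP pathway was lower in 6 of 47 genes (12.8%) and higher in 1. LRRC32, TGFB2 and FSTL1, a secreted follistatin-like glycoprotein (-1.03, SE 0.089), were lower, as were SMAD6, an inhibitory SMAD (-0.75, SE 0.13), and ID3, an inhibitor of differentiation factors and a BMP target (-0.50, SE 0.090). The receptor TGFBR2 was higher, by 0.58 (SE 0.13) on its brightest and 0.93 (SE 0.14) on its second probe. The TGFBR2 call on the brightest probe was lost with any 1 of the 4 arrays left out (0.56 to 0.59), and ID3 did not pass without control replicate 1 (-0.43) or TRPM7 shRNA replicate 1 (-0.47). In the Wnt pathway 4 of 33 genes were lower and 3 higher. The transcription factor LEF1, which carries the Wnt signal to DNA, was detected in control cells only, at 5.04 and 4.68, and was at least 3.21-fold lower, with its second probe at least 1.55-fold lower. The 3 that were higher are secreted Wnt antagonists. DKK2 went from 3.41 and 2.35 to 5.09 and 5.69 (2.51, SE 0.30), SFRP1 from 5.54 and 5.52 to 6.27 and 6.40 (0.81, SE 0.13), and FRZB had a change of 1.41 (SE 0.24), a call that did not pass with the SH-EP2 arrays fitted alone. In the Notch pathway 3 of 17 genes were lower and 0 higher (4 and 3 at an unadjusted p under 0.05). HES4, a Notch-responsive repressor, went from 11.60 and 11.38 to 9.93 and 10.00 (-1.52, SE 0.10), and the receptor NOTCH3 from 7.87 and 7.95 to 7.23 and 7.01 (-0.79, SE 0.14), a call that was lost without TRPM7 shRNA replicate 2 (-0.67).

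Of 32 transcription factors of the neural crest and of epithelial-mesenchymal transition 6 were lower (18.8%) and 2 higher (6.25%). SNAI2 (ILMN_2082585), a zinc finger repressor of epithelial genes, went from 9.40 and 9.24 to 7.92 and 7.93 (-1.39, SE 0.18, adjusted p = 6.68e-05 from limma), and a second probe fell by 1.27. SNAI1 was undetected on all 4 arrays. TWIST1 changed by -0.37 (SE 0.080), HIF1A by -0.69 (SE 0.15, with -0.73 and -0.71 on its other probes) and the forkhead factor FOXC1 by -0.56 (SE 0.089). The homeobox gene DLX5 changed by -1.45 (SE 0.29). SOX9, a crest and cartilage factor, rose from 7.23 and 7.29 to 8.24 and 8.16 (0.94, SE 0.16), and LIN28B, which blocks the let-7 microRNA, was undetected in control cells and at least 2.73-fold higher in TRPM7 shRNA cells. EOMES had a change of 1.19 (SE 0.43, adjusted p = 0.195 from limma). HIF1A did not pass with any 1 of the 4 arrays left out (-0.75 to -0.62), and neither DLX5 (-1.60 to -1.32) nor TWIST1 (-0.42 to -0.32) passed without either control array or TRPM7 shRNA replicate 2.

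Of 18 ERK target and feedback genes 7 were higher and 0 lower, with a median of 0.37, while of 9 AP-1 genes 0 were higher and 1 was lower. Several of these genes brake the pathway that induces them. DUSP6 (ILMN_2396020), the phosphatase of ERK, went from 7.18 and 7.29 to 8.41 and 8.31 (1.12, SE 0.14, adjusted p = 3.67e-05 from limma), and SPRY2 (ILMN_2089329), a sprouty inhibitor of receptor signalling, from 7.16 and 7.22 to 8.11 and 8.07 (0.90, SE 0.11). IER3 (ILMN_1682717), an immediate early gene, went from 6.86 and 6.71 to 8.52 and 8.76 (1.85, SE 0.25). In these 3 genes the duplicates lay close together and the groups did not overlap, as in 44.3% of all genes. PHLDA1 rose by 1.44 (SE 0.15) and by 1.99 on its second probe, ETV4, an ETS factor downstream of ERK, by 2.02 (SE 0.28), and CCND1, the G1 cyclin, by 0.52 (SE 0.087).

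Of 15 genes of the ATF4 branch 8 were lower and 0 higher (8 and 2 at an unadjusted p under 0.05), with a median of -0.46. ATF4 is a transcription factor that cells switch on when amino acids are short or unfolded proteins collect, and it drives genes that make and import amino acids. ASNS (ILMN_1796417), asparagine synthetase, went from 11.24 and 11.17 to 10.12 and 10.07 (-1.11, SE 0.081, adjusted p = 6.38e-08 from limma). PHGDH (ILMN_1704537), the first enzyme of serine synthesis, went from 12.85 and 12.72 to 11.56 and 11.58 (-1.22, SE 0.078), and PSAT1 (ILMN_1692938), the next enzyme, from 10.13 and 10.12 to 8.85 and 8.80 (-1.30, SE 0.098). The arrays of the 2 groups were far apart in each of these enzymes. VLDLR, a lipoprotein receptor and ATF4 target, fell by 2.42 (SE 0.34), and TRIB3, a pseudokinase that feeds back on ATF4, by 0.72 (SE 0.11). ATF4 itself had a change of -0.36 (SE 0.074), which did not pass without control replicate 1 or either TRPM7 shRNA array (-0.41 to -0.32 over all 4 omissions), and its 2 dimmer probes did not pass. Of the 12 chaperones and sensors of the unfolded protein response 1 was lower and 0 higher (4 and 0 at an unadjusted p under 0.05), namely XBP1 (-0.57, SE 0.090).

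The amino acid response element, searched as TGATGNAA on both strands, was present in 3.67% of all promoters. It was present in 3 of the 9 promoters of the lower genes of this family, those of ASNS, CHAC1 and SLC3A2. Members that did not pass were not counted separately, so this share cannot be tied to the fall. The ASNS promoter is given because its match lies close to the start, 68 bases before it, at chr7:97872409-97872608 on the minus strand, with the match in capitals.
ASNS: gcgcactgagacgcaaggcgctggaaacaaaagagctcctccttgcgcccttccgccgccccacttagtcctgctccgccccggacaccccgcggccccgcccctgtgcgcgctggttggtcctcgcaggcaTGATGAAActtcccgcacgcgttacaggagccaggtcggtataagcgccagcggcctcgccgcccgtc
Lipid and hypoxia genes were mixed. In cholesterol synthesis and transport 5 of 24 genes were lower and 1 higher. SQLE, squalene epoxidase, went from 10.56 and 10.76 to 10.10 and 10.07 (-0.57, SE 0.092). The cholesterol exporter ABCA1 was higher (1.95, SE 0.45). Of 11 fatty acid genes ACLY, which makes cytosolic acetyl-CoA, was lower (-0.80, SE 0.10, and -0.73 on its second probe), and FASN, fatty acid synthase (0.46, SE 0.090), and ELOVL6, an elongase (0.55, SE 0.11), were higher. ABCA1 did not pass with any 1 of the 4 arrays left out (1.87 to 2.07), FASN not without control replicate 1 (0.34) or TRPM7 shRNA replicate 1 (0.42), and ELOVL6 not without control replicate 1 (0.49) or TRPM7 shRNA replicate 2 (0.42).

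Of 34 glycolysis and hypoxia genes 3 were lower and 2 higher. ANKRD37 (ILMN_1756417), a hypoxia-induced gene, had one of the clearest decreases, from 9.52 and 9.38 to 6.91 and 7.01 (-2.49, SE 0.14, adjusted p = 1.93e-09 from limma). BNIP3L, which marks mitochondria for removal (-0.72, SE 0.097), and ALDOC, an aldolase (-0.82, SE 0.12), were lower, whereas ADM, adrenomedullin, also hypoxia-induced, rose from 10.25 and 10.17 to 10.89 and 10.98 (0.72, SE 0.12). PFKFB3, an activator of glycolysis, had a change of 0.50 (SE 0.10) and did not pass with any 1 of the 4 arrays left out (0.49 to 0.52). The second probes of BNIP3L and PFKFB3 had changes of -0.21 and 0.27, which did not pass. GAPDH, the glycolytic enzyme often used as a reference, had a change of 0.05 (SE 0.065).

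Metallothioneins bind zinc and their genes follow the free zinc of the cell. Of 10 genes listed with the metallothioneins, which include the transcription factor MTF1, 2 were lower and 0 higher (4 and 0 at an unadjusted p under 0.05). Of 14 zinc transporters 0 passed in either direction in limma, also at an unadjusted p under 0.05. MT1X went from 12.30 and 12.33 to 11.30 and 11.26 (-1.03, SE 0.099) and MT1A from 12.72 and 12.84 to 12.08 and 12.12 (-0.68, SE 0.11), and MT2A had a change of -0.48 (adjusted p = 0.0533 from limma). Of 15 listed genes of potassium channels and related proteins 2 were higher and 3 lower. The list does not hold KCNAB1, which rose on 1 probe as given above. The pore of the large-conductance calcium-activated channel, KCNMA1, rose from 6.01 and 6.38 to 7.55 and 7.71 (1.43, SE 0.19) while its smooth muscle subunit KCNMB1 fell from a level of 6.12 on both control arrays to below detection. The 2 dimmer KCNMA1 probes were undetected. KCNJ2 was higher as given above, KCTD12, an auxiliary protein of GABA-B receptors, fell by 1.24 (SE 0.14), and KCNG1 had a change of -0.66 (SE 0.16) that did not pass with any 1 of the 4 arrays left out (-0.72 to -0.60).

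Of 40 genes of DNA replication and mitosis 0 passed in limma (3 higher and 7 lower at an unadjusted p under 0.05), with a median of -0.16. TOP2A, the topoisomerase of dividing cells, had levels of 10.66 and 10.95 in control and 10.71 and 10.54 in TRPM7 shRNA cells, so that the groups overlapped, and MKI67, the Ki-67 antigen, had a change of -0.46 (SE 0.34, adjusted p = 0.668 from limma). Of 16 G1 cyclins, kinases and inhibitors 3 were higher and 2 lower. CDK6, a kinase that drives cells out of G1, went from 9.99 and 10.00 to 11.32 and 11.18 (1.25, SE 0.082, adjusted p = 1.49e-08 from limma), with CCND1, its cyclin partner, from 10.02 and 10.33 to 10.64 and 10.76. The kinase inhibitor CDKN1A rose too, from 12.60 and 12.55 to 13.08 and 13.09 (0.52, SE 0.077). CDK2 (-0.51, SE 0.10) and CCND3 (-0.32, SE 0.085) were lower, CDK2 not without control replicate 2 (-0.40) or TRPM7 shRNA replicate 2 (-0.45) and CCND3 not with any 1 of the 4 arrays left out (-0.35 to -0.29).

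CDKN1A is also a target of p53. Of 20 p53 targets 7 were higher and 0 lower (11 and 1 at an unadjusted p under 0.05), with a median of 0.45, and of 13 genes of the BCL2 family 0 passed in limma (2 higher and 0 lower at an unadjusted p under 0.05). BTG2, an antiproliferative gene, went from 5.27 and 4.90 to 6.35 and 6.29 (1.24, SE 0.23), and SESN1, a stress-induced inhibitor of mTORC1 signalling, from 6.79 and 6.78 to 7.59 and 7.91 (0.96, SE 0.15). TP53INP1 had a change of 0.66 (SE 0.14), the secreted stress factor GDF15 of 0.65 (SE 0.13) and TP53I3 of 0.58 (SE 0.12). The calls of 4 of these genes were lost without single arrays, GDF15 with any of the 4 (0.60 to 0.69), BTG2 without control replicate 2 (1.05) or TRPM7 shRNA replicate 1 (1.21), TP53INP1 without control replicate 1 (0.53) or TRPM7 shRNA replicate 1 (0.53), and TP53I3 without control replicate 2 (0.56) or TRPM7 shRNA replicate 1 (0.54). Of 33 subunits of oxidative phosphorylation CYC1, cytochrome c1, was the one that passed (0.31, SE 0.075, lost with any 1 of the 4 arrays left out, 0.29 to 0.33), with 12 higher and 1 lower at an unadjusted p under 0.05. Among 24 heat shock proteins and chaperones CRYAB was the one that passed.

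In the insulin-like growth factor axis 3 of 18 genes were higher and 1 lower. The binding proteins, which hold the growth factor in the matrix, went apart, IGFBP5 from 9.23 and 9.16 to 10.14 and 10.25 (1.00, SE 0.10), IGFBP4 from 8.13 and 8.10 to 8.80 and 9.19 (0.88, SE 0.13), and IGFBP3 from 9.34 and 9.36 to 8.64 and 8.57. IGF2BP3, an RNA-binding protein of fetal and tumour cells, rose by 0.71 (SE 0.096). Of 25 axon guidance genes 2 were higher and 1 lower. SEMA5A fell from 8.29 and 8.34 to 5.73 and 5.98 (-2.46, SE 0.29) and SEMA3A, a repellent of axons and crest cells, rose from 6.40 and 6.47 to 7.99 and 7.72 (1.42, SE 0.15). SLIT2, also a repellent, had a change of 0.86 (SE 0.21) that did not pass with any 1 of the 4 arrays left out (0.74 to 0.97).

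The remaining families were as follows. Of 52 growth factor and receptor tyrosine kinase genes 5 were higher and 4 lower, and of 25 retinoid and aldehyde genes 4 were higher and 4 lower. Complement and acute phase genes were higher in 2 of 21 and lower in 0, and genes of MHC class I and peptide loading were higher in 1 and lower in 1 of 18. NRF2 targets (2 higher and 2 lower of 21), annexins and S100 proteins (1 and 2 of 23), lipid phosphatase genes (2 and 2 of 23), neuropeptides and granins (3 and 2 of 23) and neuronal and intermediate filament genes (2 and 3 of 30) had calls in both directions. The lower granins include CHGA, whose probe no SH-EP2 array detected.

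**Figure D4:**
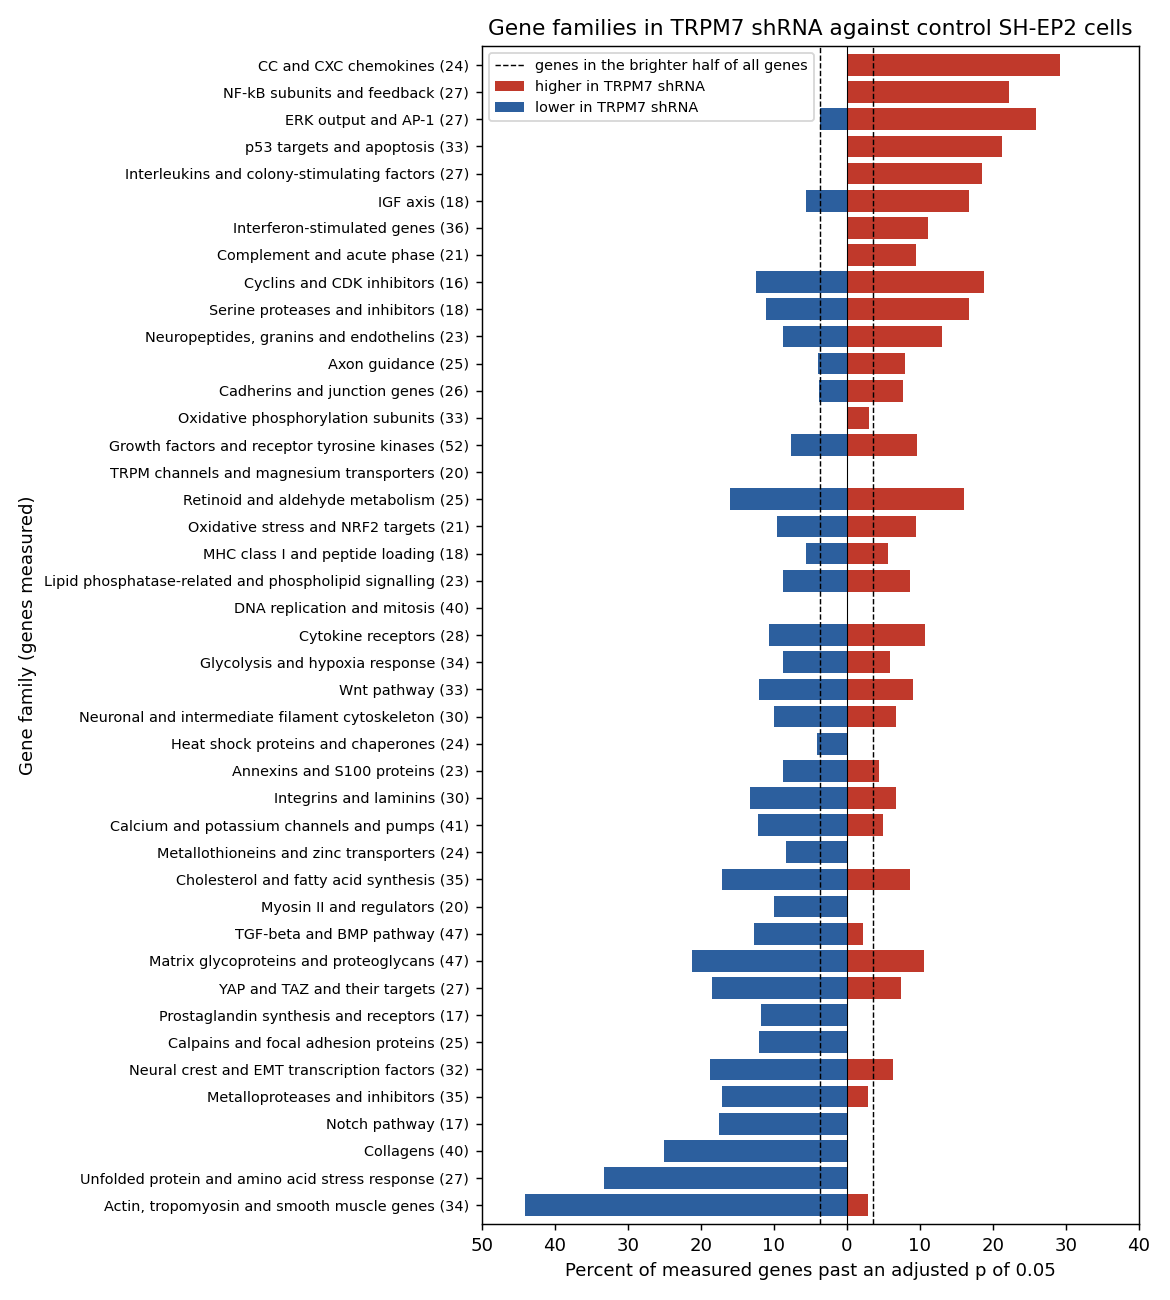
For each of 43 gene families, the percent of measured genes (x axis) that were higher (red, to the right) or lower (blue, to the left) in TRPM7 shRNA SH-EP2 cells at an adjusted p under 0.05, with the number of genes measured in brackets and dashed lines at the shares among the 15713 genes with the higher mean signal (3.57% higher and 3.65% lower). Chemokines (29.2%), NF-kB (22.2%) and ERK genes stand at the higher end, and actin (44.1%), unfolded protein and amino acid (33.3%) and collagen genes (25.0%) at the lower end.

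Whether these changes differ from those in SH-SY5Y cells was tested by the interaction in the same fit, where 1.40% of all probes passed. Of the 162 genes named here that passed in SH-EP2 cells, 92 differed from SH-SY5Y cells and 70 did not pass that test. These genes were named for their change in SH-EP2 cells, which is a part of the difference tested, so the choice itself raises their share above that of all probes. CCL2 rose by 1.06 in SH-EP2 and fell by 2.61 in SH-SY5Y cells (difference 3.67, adjusted p = 3.29e-10 from limma). DKK2 (2.51 against -1.54), IL12A (1.59 against -1.61) and IGFBP5 (1.00 against -1.13) also had estimates of opposite sign, and each of these differences passed. Among genes lower in SH-EP2 cells the estimates were higher in SH-SY5Y cells for LPPR4 (-3.37 against 1.08), DLX5 (-1.45 against 2.39), LOX (-1.15 against 1.75), DCN (-2.23 against 1.12), ACTA2 (-1.66 against 1.07), TAGLN (-1.05 against 0.92) and LUM (-1.60 against 0.78). SNAI2 was lower in both lines, with the larger change in SH-SY5Y cells (-1.39 against -2.77, difference adjusted p = 0.00425 from limma). Near-equal estimates were found for PHGDH (-1.22 against -1.24), FSTL1 (-1.03 against -1.06), IGFBP3 (-0.75 against -0.78) and MT1A (-0.68 against -0.75), where the difference did not pass, which does not show that the lines respond alike.

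**Figure D5:**
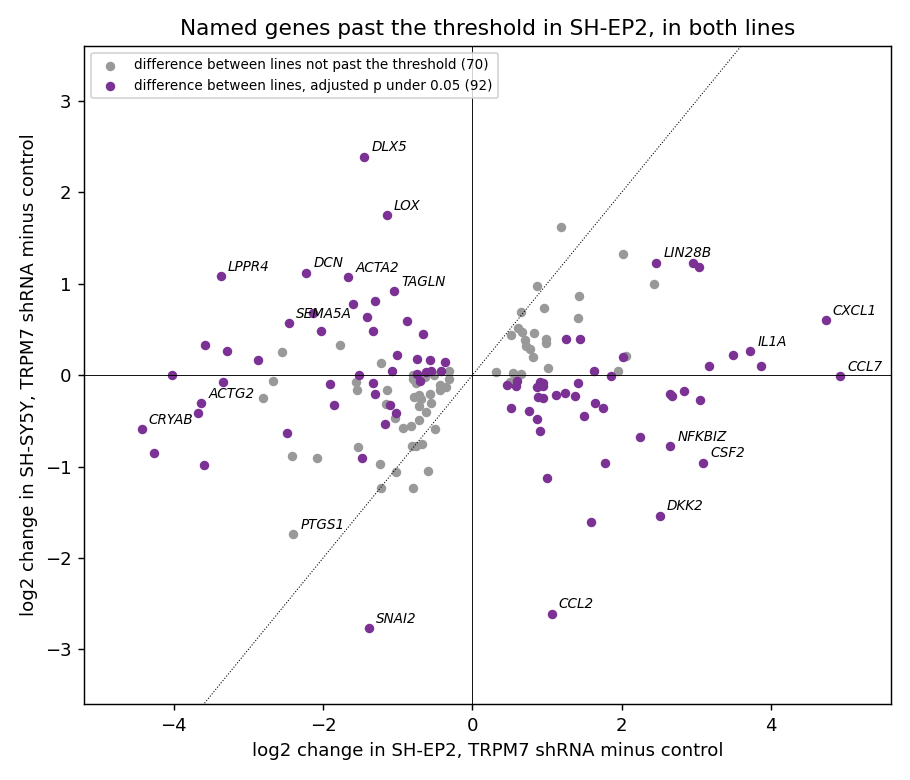
The log2 change in SH-SY5Y cells (y axis) against that in SH-EP2 cells (x axis) for the 162 named genes that passed in SH-EP2 cells, with the dotted line at equal change and fitted values also for probes that were undetected in a group. Purple genes (92) differed between the lines at an adjusted p under 0.05 and grey genes (70) did not pass, and CXCL1, CCL7, IL1A, CRYAB and ACTG2 lie between -0.59 (CRYAB) and 0.60 (CXCL1) on the y axis.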

How the data were processed

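Bead arrays (Illumina HumanHT-12 v4), 2 per group, measured gene expression in SH-EP2 and SH-SY5Y cells with a TRPM7 or a scrambled hairpin. Per the labels, the authors exported the tables with GenomeStudio 2011.1, and the deposited signals are intensities on a linear scale that carry no normalization between arrays. Each deposited signal has a detection p-value, and a probe was called detected at under 0.05. The 8 arrays were background corrected by the RMA convolution model, quantile normalized and put on the log2 scale in R 4.3.3.

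A model with 1 term per group was fitted to all 47322 probes of the 8 arrays with limma 3.58.1 (lmFit, and eBayes with an intensity trend). P-values were two-sided and adjusted over all probes by the Benjamini-Hochberg method, with 0.05 as the threshold. The 4 groups share 1 estimate of the spread. Each gene stands for its probe of highest mean signal on the 8 arrays, so a probe of another transcript can differ, and 31426 symbols were present, of which 17761 are current in RefSeq and 3451 are older names there. The floor of an array is its lowest normalized signal among detected probes, and a bound sets the mean of the detected group against the mean, over the arrays of the other group, of the higher of floor and own signal.

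Named are the 15 probes with the largest measured change or bound in each direction, for each of 43 gene families up to 5 members that passed in each direction and up to 3 that stand for a role, and the transcription factors the study names for this line. The members, families, motifs and named genes were chosen with earlier results of these data known. Promoters (RefSeq, GRCh38.p14) were searched for exact matches to fixed patterns of the kappaB and CArG motifs and to TGATGNAA. The fit was tested on simulated data. Alternatives were other background corrections and scalings, a detection filter, eBayes without a trend, an equal-variance test, the SH-EP2 arrays fitted alone, averaging of a gene's probes, the replicate number as a block and each array left out. The sequence of the hairpins was not used here, and a few genes that the naming rule picks are not reported here.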

Additional observations from a re-analysis of the deposited data

Results flagged for a closer look

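For 92 of the 162 genes described above the effect of the TRPM7 hairpin differed between SH-EP2 and SH-SY5Y cells, by the interaction in limma at an adjusted p under 0.05. Each value below is the log2 change in SH-EP2 minus that in SH-SY5Y cells. For 24 of them the probe was undetected in one SH-EP2 group or on all SH-SY5Y arrays, so that the value is a fitted difference that rests on signals below detection, not a measured size and not a bound. These are ADAMTS5, C21orf129, C5orf23, C5orf46, CCL7, CLDN1, COL8A1, CRYAB, CSF2, CX3CL1, CXCL2, CXCL5, EBI3, FMO1, HAPLN1, IL1A, INPP5D, KCNJ2, KCNMB1, LEF1, LIN28B, LRRC32, LTB and SEMA5A. In 18 of the 24 no SH-SY5Y array detected the probe, and a fall in SH-SY5Y cells could not have been measured.

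Among chemokines and cytokines the difference was positive for CXCL1 (4.13), CXCL2 (3.27), CXCL5 (1.95), CX3CL1 (2.92), CCL2 (3.67) and CCL7 (4.92). It was also positive for IL1A (3.46), CSF2 (4.06), LTB (3.32), EBI3 (3.77) and IL12A (3.20). In NF-kB and receptor genes it was NFKBIZ (3.43), TNFAIP3 (2.74), IRAK2 (2.11), NFKBIA (1.16), SOD2 (1.03) and TNFRSF21 (0.67). The interferon-induced genes gave HERC5 (1.59) and IFI44 (1.51), and 2 genes of inflammation went the other way, PTGER2 (-1.23) and CD14 (-2.51).

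In the contractile and adhesion genes the values were ACTG2 (-3.32), ACTA2 (-2.73), TAGLN (-1.97), CALD1 (-1.24), CSRP1 (-0.63), MYH9 (-0.63), FERMT2 (-0.75) and ILK (-0.47). Collagen genes and LOX gave LOX (-2.90), COL8A1 (-1.13) and COL4A1 (-0.65). Among matrix genes the values were DCN (-3.35), LUM (-2.38), MFAP4 (-0.57), SDC2 (-2.05), VCAN (-1.47) and HAPLN1 (-1.81), and for the other syndecans SDC1 (0.99) and SDC4 (1.34). Proteases and inhibitors gave ADAMTS5 (-4.03), ADAMTS1 (-1.52), MMP11 (-0.92) and SERPINF1 (1.6). Receptors and junction genes gave ITGA11 (-1.81), ITGA2 (1.94), CDH11 (-2.11), CLDN1 (2.86) and JUP (1.06).

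For signalling genes and transcription factors the values were LRRC32 (-3.28), DKK2 (4.05), FRZB (1.5), LEF1 (-2.81) and HES4 (-1.52), and SNAI2 (1.38), TWIST1 (-0.50), SOX9 (1.19), DLX5 (-3.84), FOXC1 (-0.60) and LIN28B (1.23). The positive value of SNAI2 reflects a larger fall in SH-SY5Y cells. The ERK targets gave ETV4 (1.82), IER3 (1.86), PHLDA1 (1.05), DUSP6 (1.35), SPRY2 (0.98) and CCND1 (0.89). Metabolic and metal-binding genes gave PSAT1 (-1.09), ASNS (-0.78), SQLE (-0.75), FASN (0.57), ANKRD37 (-1.87) and MT1X (-0.62). Cell cycle, p53 and insulin-like growth factor genes gave CDK6 (0.86), BTG2 (1.44), TP53I3 (0.70), IGFBP4 (1.12) and IGFBP5 (2.13). Channel genes gave KCNMB1 (-3.55), KCNAB1 (3.07), KCNJ2 (1.86), KCNG1 (-1.12) and AQP10 (1.72). The remaining genes were CRYAB (-3.84), C5orf46 (-3.40), C5orf23 (-3.26), PLAC9 (-2.60), LPPR4 (-4.45), FMO1 (-3.91), FRAS1 (-3.04), SEMA5A (-3.03), INPP5D (2.90) and C21orf129 (3.01).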

How the results depend on the processing

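The number of probes past the threshold in SH-EP2 cells depended most on how the spread was estimated. It was 1429 as reported, 100 with eBayes without an intensity trend, 3 with the equal-variance test per probe (4991 at an unadjusted p under 0.05), 2587 with the SH-EP2 arrays fitted alone, 881 with each gene's probes averaged (where fewer features were tested) and 675 to 781 with 1 of the 4 arrays left out, where the spread of the remaining array is taken from the other groups. Other background corrections, median scaling and the detection filter gave 985 to 2015. For the difference between the lines the number was 662 as reported, 1153 with normexp, 1248 without background correction, 23 without an intensity trend, 15 with equal variances, 398 with probes averaged and 399 to 447 with 1 array left out. Median scaling turned its split from 375 higher and 287 lower to 182 and 309. The cause was not tested. With the replicate block the numbers were 1136 and 500, and arrays of the same number did not deviate together (correlation of deviations -0.00447 over 14577 probes).

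No named gene reversed. Of 163 calls, those of the 162 genes and of a second IL8 probe, 107 were kept with each array left out in turn, 41 without an intensity trend and 0 with the equal-variance test per probe. Taking the mean over probes ended the calls of FRAS1, KCNAB1, SOD2, SVIL, HAS3, SDC1, JUP, VLDLR, PSAT1, KCTD12, KCNMA1 and CDKN1A, which no single array ended. In simulated data 175 of 200 probes changed by a log2 of 1 were recovered, with 25 unchanged probes called, 14 of them brighter in SH-SY5Y cells, and 194 of 200 at a log2 of 2, with 47 and 28. With the SH-EP2 arrays fitted alone 176 and 191 were recovered, with 7 and 29 unchanged probes called. These false calls exceed the nominal share in both runs of the fit of 8 arrays and, at a log2 of 2, in the fit of the SH-EP2 arrays alone. Duplicates of 2 limit every call, and near the background only large changes can be measured.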
